A study of Mus musculus with 16 samples.

Results

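Loss of Polycomb repressive complex 1 (PRC1) was measured in mouse embryonic stem cells (ESCs) by nuclear RNA-seq, as the change of each of the 20633 entries of a nonredundant RefSeq gene set between 4 PRC1-null and 4 wild-type libraries, 8 of the 16 libraries in the series. PRC1-null cells were Ring1a-/-;Ring1bfl/fl ESCs given 4-hydroxytamoxifen (TAM) at 800 nM over 72 h to delete Ring1b. The cells called wild type here were the same line left untreated, so that both groups lacked RING1A (gene symbol Ring1) and differed in RING1B (gene symbol Rnf2) and in exposure to TAM. Both groups were at passage 25 to 35, were grown without feeders in serum and leukemia-inhibitory factor, and were labelled replicates 1 to 4. The other 8 libraries came from a line in which Eed, a subunit gene of PRC2, had also been deleted by CRISPR/Cas9 (Eed-/-;Ring1a-/-;Ring1bfl/fl, clone B4, passage 30 to 40), with the same TAM treatment or without it. No group received TAM without carrying the floxed Ring1b allele, so an effect of TAM itself and the loss of RING1B cannot be told apart.

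PRC1 is an E3 ubiquitin ligase that places monoubiquitin on histone H2A, with RING1A or RING1B as its catalytic subunit. Canonical PRC1 holds CBX and PHC proteins and reads the histone mark left by PRC2, whereas variant PRC1 holds RYBP or YAF2 and reaches CpG islands through other DNA-binding subunits. In ESCs the complex is known for keeping genes of later development silent while the cells remain pluripotent.

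The deposited table of the comparison gives each entry a mean normalized count over all 16 libraries, a log2 fold change moderated toward 0, its standard error and a Wald test adjusted over the 17445 entries that passed a filter on low counts. Values of single libraries are not in it. The scatter of replicates is therefore seen only in the standard errors, and how deeply each library was sequenced is unknown. Levels named below as mean normalized counts of a group were worked out from the overall mean and the 3 unshrunken fold changes of the 4 groups. They are approximations without an error. Each log2 fold change is PRC1-null over wild type with its standard error (SE, n = 4 libraries per group), and an entry was called higher or lower where the adjusted p was under 0.05 and the fold change over 2, the thresholds of the study. The RNA was nuclear and bulk, so fewer cells with a transcript and less of it per cell cannot be told apart.

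Both PRC1 ligase genes and Eed were first examined as a check of the labels. Rnf2, which encodes RING1B, had 2926 mean normalized counts in PRC1-null and 3901 in wild-type cells, a log2 fold change of -0.41 ± 0.09, so most of its transcript was still counted. Deletion of a part of the gene need not remove the transcript, and which part was deleted cannot be seen in a count over the whole entry. Ring1, deleted in both groups, was near the bottom of the range at 11.7 in PRC1-null and 28.8 in wild-type cells (-1.13 ± 0.44), and Eed, intact in both, had 4413 and 4315 (0.03 ± 0.09). As a check of the cell type, the 34 genes of the pluripotency list had a summed level of 118786 in PRC1-null and 157298 in wild-type cells, and the 25 tested fibroblast and feeder markers, with 5 more that were not tested, summed to 44422 and 52463, of which Fn1, also an ESC gene, gave 29640 and 42602. The fibroblast collagen Col3a1 and the proteoglycans Dcn and Lum were at or below 0.32 in both groups. Other members of that list did change: of the 25 tested, 10 were higher and 0 lower in PRC1-null cells, as described below.

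Loss of PRC1 moved expression mostly upward. Of 17445 entries tested, 1953 (11.2%) were higher and 197 (1.13%) were lower in PRC1-null cells. With 1 entry per gene, 1770 of 16228 genes (10.9%) were higher and 179 (1.10%) were lower, and these genes are described from here on. The called rises were also larger than the called falls. Their median log2 fold change was 1.68, with 590 past 4-fold and 143 past 8-fold, whereas the lower genes had a median of -1.33, with 15 past 4-fold and 2 past 8-fold. When the moderated change was tested against a fold of 2 instead of 0, 697 genes had risen by more than 2-fold and 14 had fallen by more than 2-fold. With unshrunken fold changes these counts were 1009 and 54. That setting kept the standard errors of the moderated changes, which can be too small for unshrunken ones, so its counts may be too high. With the fold threshold removed, 2904 genes (17.9%) were higher and 2597 (16.0%) were lower, and the split of entries without it moved to 3666 higher and 1620 lower, against 3225 and 2781, once fold changes were centred on the median of well-counted entries, which lay at -0.08. In all, 7693 genes (47.4%) had a 95% interval that stayed within a fold of 1.5 in either direction. These overlap the genes counted without the fold threshold.

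**Figure D1:**
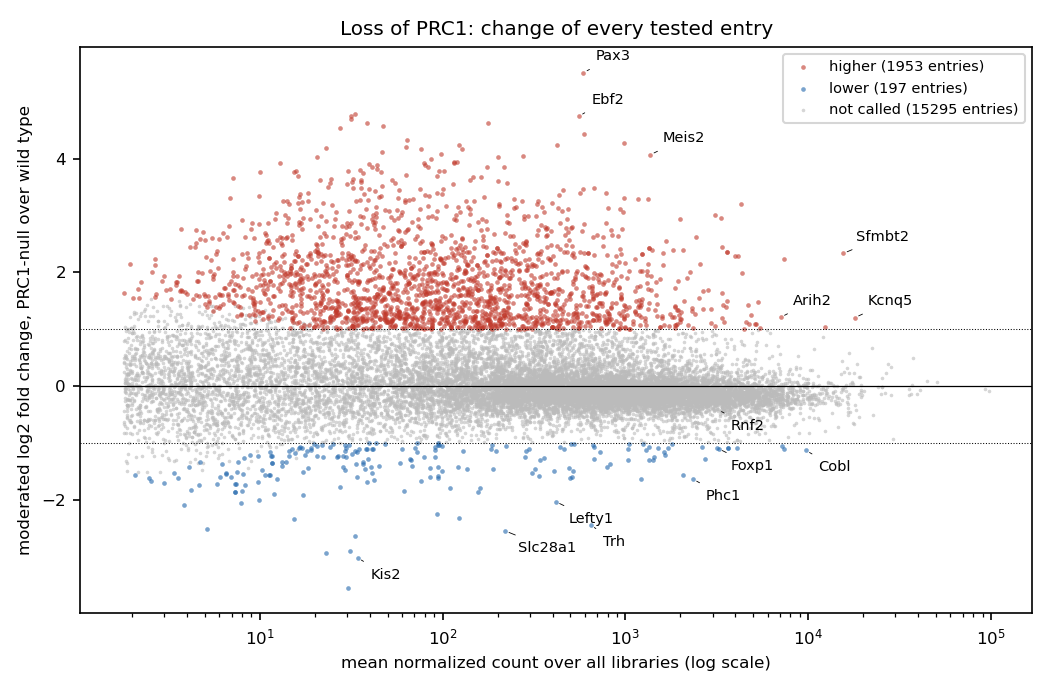
Each point is 1 of 17445 tested entries, with its mean normalized count over all 16 libraries on a log axis and its moderated log2 fold change (PRC1-null over wild type) on the other, coloured red where higher (1953), blue where lower (197) and grey where not called. Dotted lines mark a fold of 2, and the red cloud reaches further from 0 than the blue one, up to Pax3 at 5.51.

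The 15 largest called rises at a mean normalized count of 100 or more were mostly regulators of development outside the pluripotent state. Pax3, a paired-box factor of neural crest and muscle precursors, had 815 mean normalized counts in PRC1-null and 15.2 in wild-type cells (5.51 ± 0.22). Ebf2 and Ebf3, helix-loop-helix factors of neuronal and mesenchymal lineages, had 833 and 808 in PRC1-null cells, against 27.7 and 33.8 in wild type (4.75 ± 0.22 and 4.44 ± 0.21). Tbx18, a T-box factor of the heart and urinary tract, followed at 4.63 ± 0.25, then Esrrg, an orphan nuclear receptor, at 4.27 ± 0.21, and Nlgn1, a postsynaptic adhesion protein, at 4.24 ± 0.20. The others were Hoxd13, Sorcs3, Meis2, Pitx1, Pax7, Sim2, Sim1, Nr2f2 and Trhde, between 4.23 and 3.67. Only Nlgn1, Sorcs3 and Trhde among the 15 encode no transcription factor.

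The most abundant of the higher genes already had ample RNA in wild-type cells, and those named here rose by less. Sfmbt2, a Polycomb-group protein gene of an imprinted locus, had 8427 mean normalized counts in PRC1-null and 1624 in wild-type cells (2.33 ± 0.17). The voltage-gated potassium channel gene Kcnq5 had 7069 and 3025 (1.20 ± 0.17), and Arih2, a ubiquitin ligase gene, 8128 and 3476 (1.21 ± 0.15). Hs6st3, which modifies heparan sulfate, rose by 1.48 ± 0.14, and Celf2, Arhgap6 and Med12l by 1.09 ± 0.09, 1.03 ± 0.33 and 1.03 ± 0.16.

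Transcription factor families differed widely in how many of their members were higher. The counts of each list, here and below, stand against 10.9% higher and 1.10% lower over all genes tested. Those shares are not matched in level: among genes with a mean of 10 to 30 and 30 to 100 counts, 22.5% and 25.6% were higher. The Hox cluster genes had 36 of 38 tested members higher and none lower. The Zic, Ebf, Tfap2 and Runx genes, many of which act in neural crest, neurons and blood, had 13 of 17 higher, none lower and a median log2 fold change of 2.20. The T-box genes had 10 of 15 higher (median 1.18) and the Gata genes 4 of 6 (median 1.55), with none lower. Zic1, needed for cerebellar development, had 118 mean normalized counts in PRC1-null and 4.40 in wild-type cells (4.33 ± 0.32), and Tfap2a, a neural crest factor, 252 and 26.9 (3.15 ± 0.17). Gata3, a factor of trophoblast and T cells, rose by 3.07 ± 0.25 and Gata2 by 2.12 ± 0.31, whereas Gata6 and Gata4, factors of primitive endoderm, started higher in wild type, at 450 and 746, and rose by 2.00 ± 0.30 and 1.10 ± 0.32.

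Of the tissue-specific basic helix-loop-helix factors, 12 of 33 tested were higher (median 1.00) and 1, Olig1, was lower. Npas3, a brain factor, rose by 2.71 ± 0.21 and Twist2, a mesenchymal factor, by 2.44 ± 0.27, and Olig1 had 67.9 in PRC1-null and 138 in wild-type cells, just past a fold of 2. The nuclear receptor genes, ligand-regulated factors for the most part, had 17 of 46 higher and 1 lower, with a median of 0.24. Thrb, a thyroid hormone receptor, had 253 in PRC1-null and 46.1 in wild-type cells (2.40 ± 0.18), whereas Nr0b1, part of the ESC factor network, had 333 and 833 (-1.30 ± 0.17).

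The Sox genes had 7 of 19 higher and none lower, including Sox10 (2.37 ± 0.42), Sox6 (2.32 ± 0.11) and Sox9 (2.11 ± 0.44), factors of neural crest, muscle and cartilage. The Fox genes had 12 of 38 higher and 2 lower. Foxa1, a pioneer factor of endoderm, rose by 3.74 ± 0.38, Foxf1 of lung and gut mesoderm by 3.46 ± 0.41 and Foxp2 by 2.24 ± 0.23. Its relative Foxp1 fell to 2760 in PRC1-null cells, against 6020 in wild type (-1.10 ± 0.18), and Foxr2, of low level, was lower as well (-1.89 ± 0.58).

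Of the Klf, Egr, Sall, Gli and Prdm genes, 8 of 44 tested were higher (18.2%) and 2, Sall1 and Gli1, were lower (4.55%), against 10.9% and 1.10% of all genes. Their median was -0.05, and it was above 0 with centred fold changes. Glis3, a factor of pancreas and kidney, had 3508 in PRC1-null and 1082 in wild-type cells (1.68 ± 0.14). Of the 297 Zfp genes tested, only 8 were higher and 1, Zfp629, was lower, shares of 2.69% and 0.337%, with a median of -0.16. Zfp385b was the exception in size, with 1153 in PRC1-null and 110 in wild-type cells (3.29 ± 0.21).

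**Figure D2:**
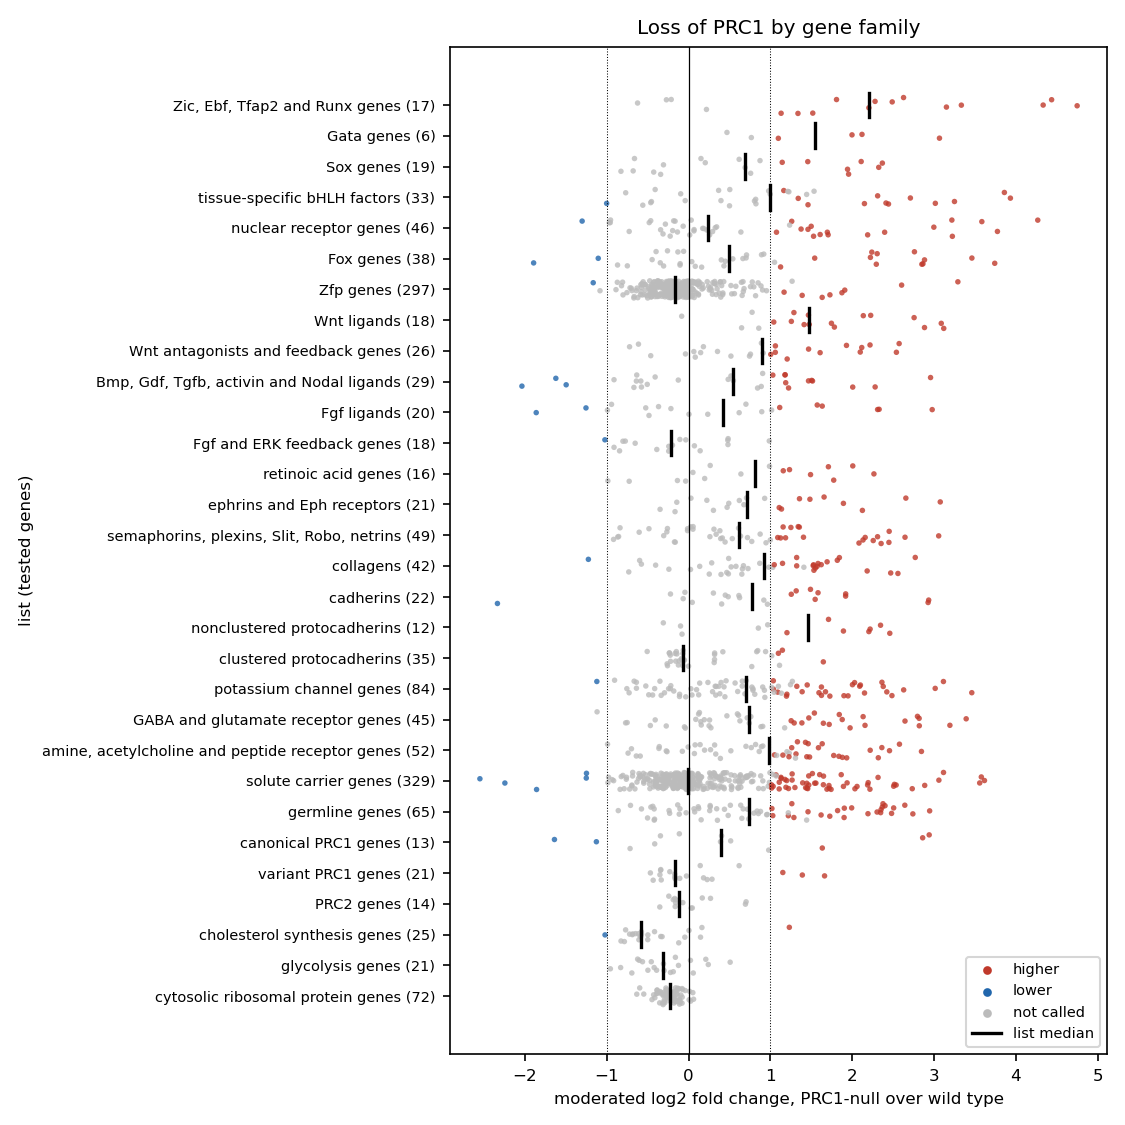
Each point is a tested gene of 1 of 30 lists, placed by its moderated log2 fold change (PRC1-null over wild type) and coloured by call, with a black bar at the list median and the number of tested genes in brackets. The Zic, Ebf, Tfap2 and Runx genes have the highest median shown (2.20), and the cholesterol synthesis genes the lowest (-0.58).

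Among secreted signals the Wnt ligands stood out. Of 18 tested, 14 were higher and none lower, with a median of 1.47. Wnt5a, a ligand of the planar polarity branch, had 138 in PRC1-null and 17.9 in wild-type cells (2.76 ± 0.29), Wnt3a, which acts through beta-catenin, 154 and 30.5 (2.23 ± 0.27), and Wnt9b rose by 3.09 ± 0.42 and Wnt4 by 1.78 ± 0.18. Of the Wnt antagonists and feedback genes, 12 of 26 were higher and none lower. Axin2, a target of the beta-catenin branch, had 447 and 71.8 (2.57 ± 0.19), Nkd1, another feedback inhibitor, 334 and 107 (1.61 ± 0.19), and the agonists Rspo3 and Rspo2 rose by 2.54 ± 0.30 and 2.22 ± 0.34. The 10 Frizzled receptors had 1 member in each direction: Fzd1 rose by 1.22 ± 0.28, whereas Fzd5, the most abundant of the called pair, fell to 1648 in PRC1-null cells, against 3534 in wild type (-1.09 ± 0.11).

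Ligands of the Fgf and Tgf-beta families moved in both directions. Of 20 Fgf ligands, 6 were higher, including Fgf9 (2.98 ± 0.38) and Fgf13 (2.31 ± 0.18), which stays inside the cell, and 2 were lower. Fgf4, the main Fgf ligand of ESCs, had 1339 in PRC1-null and 3263 in wild-type cells (-1.25 ± 0.21), and Fgf18 had 71.6 and 270 (-1.86 ± 0.21). The 18 feedback and target genes of Fgf and ERK signalling had no member higher and 1 lower, Etv1 (-1.02 ± 0.35), and with centred fold changes 1 was higher and 0 were lower. The 29 genes listed as Bmp, Gdf, Tgfb, activin and Nodal ligands reached 2.96. Of these, 11 were higher, with Bmp6, Tgfb2, Bmp8b and Bmp1, which encodes a protease and no ligand, between 1.18 and 1.22, and 3 were lower. These were Lefty1, a Nodal inhibitor of ESCs and embryo, with 224 in PRC1-null and 1255 in wild-type cells (-2.04 ± 0.53), Inhbb, an activin subunit gene, with 449 and 1291 (-1.50 ± 0.18), and Inhbe, with 1.49 and 7.46 (-1.62 ± 0.64). Of the antagonists and targets of this family, 8 of 25 were higher, including Fstl4 (2.93 ± 0.19).

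Of 16 tested Hedgehog pathway genes, 4 were higher and 2 were lower. The ligand genes Shh and Dhh had 7.98 and 35.9 mean normalized counts in PRC1-null cells, against 0.189 and 7.49 in wild type, the release factor Disp2 rose by 2.07 ± 0.35 and the coreceptor Boc by 1.23 ± 0.18. The transcriptional targets and pathway members Ptch1 and Gli1 fell, to 2696 and 320 mean normalized counts in PRC1-null cells, against 5737 and 723 in wild type (-1.07 ± 0.18 and -1.15 ± 0.21). With centred fold changes Ptch1 lay at -0.99, no longer past a fold of 2.

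Of 16 retinoic acid genes, 7 were higher and none lower, among them the synthesis enzymes Aldh1a2 (2.27 ± 0.32) and Aldh1a3 (2.01 ± 0.28) and the binding proteins Crabp1 (1.71 ± 0.19) and Rbp4 (1.77 ± 0.24). Of 15 Notch genes, the atypical ligands Dlk1 (2.90 ± 0.22) and Dlk2 (1.82 ± 0.51) were higher and the receptor Notch4 was lower, with 86.3 in PRC1-null and 251 in wild-type cells (-1.45 ± 0.31). Igf2, a fetal growth factor, had 773 and 138 (2.29 ± 0.33). Of 58 chemokine, interleukin and receptor genes, 11 were higher and Il33 was lower (-1.24 ± 0.34).

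Among cues that guide axons and migrating cells, 9 of 21 ephrins and Eph receptors were higher and none was lower by 2-fold, with Epha6 at 401 in PRC1-null and 58.0 in wild-type cells (2.66 ± 0.27) and Efna5 at 3349 and 1296 (1.36 ± 0.13). Of 49 semaphorin, plexin, Slit, Robo and netrin pathway genes, 18 were higher and none was lower by 2-fold, although 6 were lower when no fold was required. Sema5a, a transmembrane semaphorin, had 4496 in PRC1-null and 809 in wild-type cells (2.45 ± 0.13), the netrin receptor Unc5d 1188 and 178 (2.65 ± 0.23), and the semaphorin receptors Plxnd1 and Nrp1 rose by 2.45 ± 0.22 and 2.08 ± 0.19.

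In the adhesion and matrix families, 9 of 22 cadherins were higher, including Cdh11, Cdh20 and Cdh22 of mesenchyme and nervous system (2.93 ± 0.26, 2.93 ± 0.28 and 1.92 ± 0.26), and Cdh9 was lower, with 5.36 in PRC1-null and 37.9 in wild-type cells (-2.33 ± 0.51). Nonclustered and clustered protocadherins differed. Of 12 nonclustered genes, 7 were higher (median 1.46), such as Pcdh19 with 538 and 93.5 (2.46 ± 0.20), whereas only Pcdhac2, Pcdhac1 and Pcdhb22 of 35 clustered genes were higher, with a median of -0.07 that was above 0 with centred fold changes. Clustered members share exons and sequence, so their separate values are uncertain. Of 42 collagens, 18 were higher (median 0.93), including Col25a1 of neurons (2.77 ± 0.19) and Col2a1 of cartilage (2.56 ± 0.18), and Col6a5 was lower (-1.22 ± 0.33). Of 24 integrins, 6 were higher, including Itga11 (3.16 ± 0.28), and Itgb8 was lower (-1.65 ± 0.33).

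Ion channels and transmitter receptors, which set the excitability of neurons and muscle, had many members higher, against 10.9% of all genes. Potassium channel genes and GABA and glutamate receptor genes had low wild-type medians, 45.3 and 36.5 mean normalized counts. Among all genes with a mean of 10 to 30 and 30 to 100 counts, 22.5% and 25.6% were higher. The part of level in these lists was not tested. Of 84 potassium channel genes, 28 were higher (median 0.70), with Kcnj3 at 572 in PRC1-null and 47.0 in wild-type cells (3.46 ± 0.24) and Kcnd3 at 629 and 68.2 (3.11 ± 0.21), and 1, Kcnh8, was lower (-1.12 ± 0.46). Of 41 calcium and sodium channel genes, 15 were higher, including the calcium channel Cacna1c (2.43 ± 0.19), and Scn3a and Cacna2d4 were lower (-1.80 ± 0.35 and -1.69 ± 0.53). Of 45 GABA and glutamate receptor genes, 18 were higher and none lower. Grid1, a delta-type glutamate receptor, had 4768 in PRC1-null and 502 in wild-type cells (3.19 ± 0.16), and Grin2a, an NMDA receptor subunit, 918 and 82.6 (3.39 ± 0.19).

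Receptors for amines, acetylcholine and peptides had 22 of 52 members higher and none lower (median 0.98), including the muscarinic receptor Chrm3 (2.85 ± 0.22). Synaptic adhesion genes had 16 of 43 higher, such as Opcml (3.14 ± 0.20), with Cntnap3 and Cntnap5b lower. Of 26 neurofilament, neuronal cytoskeleton and synapse genes, Rbfox1 and Rbfox3, neuronal splicing factors, were higher (1.87 ± 0.30 and 1.58 ± 0.20), and Syt4, Snap25 and Stmn2 were lower. Stmn2, a microtubule regulator also present in ESCs, had 564 in PRC1-null and 1170 in wild-type cells (-1.02 ± 0.22). None of 13 tubulin genes was called.

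Solute carriers, a large class of transporters with varied roles, had 51 of 329 tested members higher (15.5%) and 5 lower (1.52%), against 10.9% and 1.10% of all genes. Their wild-type median was 184 mean normalized counts, and 14.9% of all genes with a mean of 100 to 300 were higher, near the share of the list. Slc8a1, a sodium-calcium exchanger, had 1286 in PRC1-null and 150 in wild-type cells (3.06 ± 0.14). The 5 lower carriers were Slc28a1, a nucleoside transporter, Slc23a1, a vitamin C transporter (-2.24 ± 0.33), Slc35f4 (-1.86 ± 0.53), Slc27a2, a fatty acid transporter (-1.25 ± 0.26), and Slc5a4b (-1.25 ± 0.40).

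Germline genes, which act in meiosis and in the silencing of transposons by small RNAs, had 24 of 65 tested members higher and none lower, with a median of 0.73. Several of them already had ample RNA in wild-type cells. Tex11, a meiotic crossover gene, had 3324 in PRC1-null and 995 in wild-type cells (1.73 ± 0.12), Sycp2, of the synaptonemal complex, 1229 and 177 (2.74 ± 0.17), Mael, of the piRNA pathway, 1211 and 232 (2.35 ± 0.16), and Mei1, needed for meiotic breaks, 359 and 43.9 (2.95 ± 0.22).

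As background, a variant PRC1 that contains PCGF6 also contains E2F6 and the MGA-MAX pair, and MGA-MAX binds the E-box CACGTG. RefSeq promoter windows (250 bases before to 50 after the start, build GRCm38.p6) were at hand for 52 of the 65 germline genes, and 18 of these (34.6%) held CACGTG, which reads the same on both strands, and so did 11.1% of the 12797 tested genes with a window. A window was at hand for only 78.9% of all genes tested, so both shares are given as descriptions of the genes that have one. TCCCGC, a core of E2F sites, searched on both strands, was in 40.4% and 37.3%. Fewer than 80% of the higher germline genes had a window (19 of 24), so they were not compared with the rest of the list. The next lines give 50 bases around the E-box of 5 of them, those in which it starts within 100 bases upstream of a single start, picked after their values were seen, with CACGTG in capitals, for Sycp1 (chr3:102936167-102936216, minus strand), Ddx4 (chr13:112652312-112652361, minus strand), Taf7l (chrX:134476512-134476561, minus strand), Brdt (chr5:107331094-107331143, plus strand) and Slc25a31 (chr3:40708756-40708805, plus strand).
Sycp1: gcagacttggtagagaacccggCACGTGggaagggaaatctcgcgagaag
Ddx4: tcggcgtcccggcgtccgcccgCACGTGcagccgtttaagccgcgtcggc
Taf7l: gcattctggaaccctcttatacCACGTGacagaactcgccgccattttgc
Brdt: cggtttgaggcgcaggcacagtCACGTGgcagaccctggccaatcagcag
Slc25a31: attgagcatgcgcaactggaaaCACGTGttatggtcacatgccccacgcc
The 5 genes had log2 fold changes of 2.40 ± 0.18, 1.90 ± 0.15, 2.64 ± 0.23, 2.30 ± 0.29 and 2.51 ± 0.32 in that order. The motif lies 94, 29, 49, 78 and 93 bases before their starts, and a match describes the letters only.

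Subunit genes of PRC1 itself were called in both directions. No PRC2 gene passed the fold threshold, but the lists are too short to contrast the complexes. Among 13 canonical PRC1 genes, 3 were higher (23.1%), including Cbx8 and Bmi1, against 10.9% of all genes. Phc1 and Ring1 were lower (15.4%, against 1.10% of all genes). Ring1, deleted in both groups, was no longer called with centred fold changes. Cbx8 had 38.1 in PRC1-null and 3.48 in wild-type cells (2.94 ± 0.35) and Bmi1, a PCGF subunit gene, 418 and 132 (1.63 ± 0.15). Phc1, a polyhomeotic subunit gene, fell to 1735 in PRC1-null cells, against 5457 in wild type (-1.64 ± 0.13), and it was 1 of the 14 genes whose fall was shown to exceed 2-fold. Cbx7, the main CBX gene in wild-type ESCs, was lower without passing a fold of 2, at 1524 and 2511 (-0.71, adjusted p 6.93e-08 in the DESeq2 test of the deposited table), and it is named after its value was seen. Of 21 variant PRC1 genes, 3 were higher (14.3%, near the share of all genes), namely Bcorl1 (1.66 ± 0.13), Bcor (1.39 ± 0.16) and E2f6 (1.15 ± 0.10). In this list 15 were bounded within a fold of 1.5. None of 14 PRC2 genes was called, and 11 were bounded within that fold, nor was any of 25 Trithorax, demethylase and DNA methylation genes.

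Markers of other cell types were higher in part of each list, with no list complete. The trophoblast markers had 10 of 17 tested higher and none lower, with Esx1 at 181 in PRC1-null and 28.5 in wild-type cells (2.53 ± 0.26) and Dlx3 at 84.9 and 12.6 (2.55 ± 0.31). Fibroblast and feeder markers had 10 of 25 higher, such as Prrx1 (4.18 ± 0.36), Cd44 (2.12 ± 0.19) and Fbln2 (1.82 ± 0.16), although the summed level of the list was not higher, as given above. Of the neural markers, 10 of 23 were higher, including Pax6 (2.05 ± 0.29) and the myelin gene Mbp (1.78 ± 0.15), and 1 was lower (4.35%, against 1.10% of all genes). Of gut and liver markers 7 of 18 were higher, including Cdx1 and Cdx2 (2.17 ± 0.26 and 2.15 ± 0.39). Of endothelial and blood markers it was 5 of 18, including Flt1 and Runx1 (1.99 ± 0.27 and 1.34 ± 0.22), and of primitive endoderm markers 5 of 24. Summed over each list, trophoblast markers had 5180 mean normalized counts in PRC1-null and 4087 in wild-type cells, neural markers 5026 and 3659, gut and liver markers 3743 and 3874, endothelial and blood markers 4631 and 4415, and primitive endoderm markers 119941 and 103532. Several of these markers are also developmental regulators counted in the families above, and the part of a change in the makeup of the culture was not tested.

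Of 10 cell cycle inhibitors and D cyclins, 4 were higher: Cdkn2a, with 282 in PRC1-null and 118 in wild-type cells (1.24 ± 0.13), Cdkn2b (1.87 ± 0.34), Cdkn2c (1.42 ± 0.40) and Ccnd2 (1.37 ± 0.18). Of 30 p53 targets only Pmaip1 was higher (1.07 ± 0.19), of 26 immediate early genes only Nr4a3 (1.71 ± 0.31), and none of 23 heat shock and unfolded protein genes was called. Imprinted genes had 12 of 54 higher, including Plagl1, with 2172 in PRC1-null and 478 in wild-type cells (2.14 ± 0.18), and Dio3 (2.76 ± 0.30), and Usp29 and Nnat lower (-1.43 ± 0.22 and -1.34 ± 0.32). The pluripotency list had none of 34 members higher and 3 lower, a share of 8.82% against 1.10% of all genes. The 3 were Nr0b1, Fgf4 and Lefty1, and the list had a median of -0.39. When no fold was required, 18 of the 34 were lower and 1 was higher, against 16.0% and 17.9% of all genes. The list had a wild-type median of 2614 mean normalized counts, and a call without a fold depends on level. The median SE was 0.10 for genes with a mean of at least 1000, against 0.34 from 10 to 100. The share over all genes is therefore not matched in level.

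Few growth and housekeeping genes were called, but the lists differed in how many members were bounded. None of 72 cytosolic ribosomal protein genes was called, and 56 were bounded within a fold of 1.5, with a median of -0.22. When no fold was required, 17 of the 72 were lower and 0 higher. None of the 72 mitochondrial ribosomal protein genes (70 bounded) or of the 23 reference housekeeping genes (17 bounded, median -0.08) was called. Glycolysis genes had a median of -0.31 over 21 genes with none called and only 5 bounded, and 8 were lower and 1 higher when no fold was required. None of 34 DNA replication genes was called, and 10 were lower and 0 higher without the fold. The cholesterol synthesis genes were the lowest list, with a median of -0.58 over 25 genes. Of these, 18 were lower at an adjusted p under 0.05 when no fold was required, against 16.0% of all genes, a share not matched in level. Only 6 of the 25 were bounded within a fold of 1.5, and 1 was called higher. The only one lower by more than 2-fold was Msmo1, a sterol oxidase gene, with 960 in PRC1-null and 1975 in wild-type cells (-1.02 ± 0.18), and it lay at -0.94 with centred fold changes.

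Noncoding RNAs made up 6.93% of the genes tested, 5.14% of the higher and 15.1% of the lower genes. The 6 largest noncoding rises came from developmental loci, namely an entry of the Hoxd11 locus (4.79 ± 0.45), Nkx2-2os (4.21 ± 0.39), Foxd2os (3.89 ± 0.31), Six3os1 (3.88 ± 0.36), Hoxa11os (3.78 ± 0.41) and Dlx6os1 (3.58 ± 0.42). Nkx2-2os had 146 mean normalized counts in PRC1-null and 5.41 in wild-type cells. In all, 96 tested RNAs carried the name of a gene with the suffix for its opposite strand. Of these, 20 were higher, and for 19 of them the named gene was higher too, the partner of the remaining RNA, Crxos, having no adjusted p, whereas 5 genes were higher without their opposite-strand RNA. The library kit keeps strand, but the sources used here do not say if counting used strand, so the values of such overlapping pairs are uncertain.

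The lower genes were few, and they fell less than the higher genes rose. Of the 25 largest called falls at a mean normalized count of 100 or more, Slc28a1 was first, with 108 mean normalized counts in PRC1-null and 662 in wild-type cells (-2.55 ± 0.21). Trh, which encodes thyrotropin-releasing hormone and is abundant in ESCs, had 301 and 1913 (-2.45 ± 0.37), and Lefty1 and Fgf18 followed. In the opposite direction, Trhde, the enzyme that degrades this hormone, had 175 in PRC1-null and 11.3 in wild-type cells (3.67 ± 0.30). Next among the falls came Scn3a, Insyn2b (-1.79 ± 0.40), the ESC noncoding RNA Platr22, with 937 and 3013 (-1.64 ± 0.21), Phc1, and Pcyt1b (-1.61 ± 0.32), of phosphatidylcholine synthesis. Socs2, a feedback inhibitor of cytokine signalling, had 214 and 655 (-1.58 ± 0.19), Pla2g1b, a secreted phospholipase, 252 and 751 (-1.53 ± 0.24), and Polr3gl, a paralogue of an RNA polymerase III subunit, 325 and 939 (-1.50 ± 0.19).

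The remaining falls of that rank lay between -1.50 and -1.26: Inhbb, Rragb, Map7d3, Notch4, Usp29, Pdzd4, Sall1, Zeb1, Adgrv1, Nr0b1, Dclk2, Nphs1 and Gna14. Sall1, a partner of SALL4 in ESCs, had 607 in PRC1-null and 1581 in wild-type cells (-1.37 ± 0.13), and Zeb1, a factor of the mesenchymal state, 935 and 2337 (-1.30 ± 0.15). The most abundant lower genes were Cobl, an actin nucleator, with 8044 and 17878 (-1.13 ± 0.17), Pdgfc, a growth factor, with 4252 and 9233 (-1.09 ± 0.21), Fam169a (-1.08 ± 0.16) and Jam2, a junctional adhesion protein (-1.09 ± 0.22), besides Foxp1, Phc1, Ptch1 and Fzd5. The largest falls among noncoding entries with a mean of at least 20 were 6330410L21Rik, with 1.03 in PRC1-null and 27.4 in wild-type cells (-3.55 ± 0.50), Kis2 (-3.02 ± 0.38), Rsf1os1 (-2.90 ± 0.38) and 2610037D02Rik (-2.32 ± 0.31). Of the 14 genes whose fall was shown to exceed 2-fold, Cplx1, Mobp and Themis belong to none of these groups and are named after their values were seen (-1.85 ± 0.22, -2.63 ± 0.46 and -2.94 ± 0.48). They encode a synaptic, a myelin and a T cell protein.

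**Figure D3:**
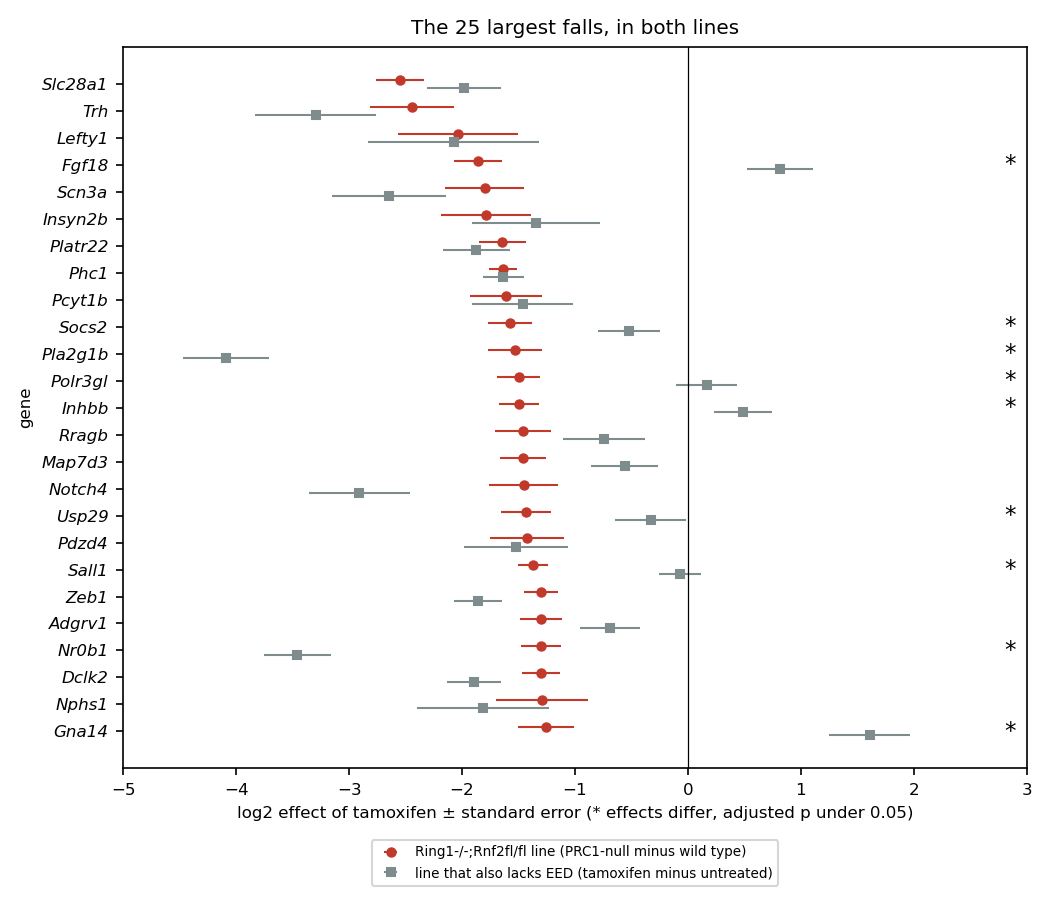
The 25 largest falls at a mean normalized count of 100 or more are ranked by their log2 fold change after loss of PRC1 (red circles, ± SE), with the effect of TAM in the Eed-/- line beside each (grey squares, ± SE). An asterisk marks the 9 genes whose effects differed between the lines, among them Fgf18, Inhbb and Gna14, which were on opposite sides of 0.

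Sequence upstream of the start is shown for a pair of the largest rises and 4 of the falls, picked after their values were seen, to set their CpG content side by side. The 200 bases before the start are given 5′ to 3′ in GRCm38.p6, with every CpG in capitals, for Ebf3 (chr7:137314446-137314645, minus strand) and Tbx18 (chr9:87731261-87731460, minus strand), which were higher, and for Slc28a1 (chr7:81114599-81114798, plus strand), Trh (chr6:92244651-92244850, minus strand), Fgf18 (chr11:33147401-33147600, minus strand) and Phc1 (chr6:122340228-122340427, minus strand), which were lower.
Ebf3: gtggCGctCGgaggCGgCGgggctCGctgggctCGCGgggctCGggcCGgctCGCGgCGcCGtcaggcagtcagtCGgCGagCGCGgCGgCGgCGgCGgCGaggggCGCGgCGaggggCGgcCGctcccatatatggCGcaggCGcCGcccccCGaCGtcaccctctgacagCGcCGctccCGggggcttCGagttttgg
Tbx18: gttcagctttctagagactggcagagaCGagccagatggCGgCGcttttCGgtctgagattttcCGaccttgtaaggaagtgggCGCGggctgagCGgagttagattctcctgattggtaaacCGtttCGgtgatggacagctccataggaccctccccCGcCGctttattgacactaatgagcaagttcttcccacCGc
Slc28a1: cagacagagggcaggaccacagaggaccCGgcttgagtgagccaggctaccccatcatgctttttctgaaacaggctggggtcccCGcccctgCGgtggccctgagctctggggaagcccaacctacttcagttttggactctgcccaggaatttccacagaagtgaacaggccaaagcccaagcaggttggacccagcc
Trh: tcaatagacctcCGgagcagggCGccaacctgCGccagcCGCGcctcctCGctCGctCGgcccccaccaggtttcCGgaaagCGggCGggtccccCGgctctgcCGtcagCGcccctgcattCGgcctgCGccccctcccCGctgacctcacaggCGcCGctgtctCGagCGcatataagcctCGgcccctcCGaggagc
Fgf18: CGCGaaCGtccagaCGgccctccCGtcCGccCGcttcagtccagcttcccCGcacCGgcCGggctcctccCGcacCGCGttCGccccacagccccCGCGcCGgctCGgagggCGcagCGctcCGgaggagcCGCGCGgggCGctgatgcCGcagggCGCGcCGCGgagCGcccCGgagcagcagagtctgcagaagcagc
Phc1: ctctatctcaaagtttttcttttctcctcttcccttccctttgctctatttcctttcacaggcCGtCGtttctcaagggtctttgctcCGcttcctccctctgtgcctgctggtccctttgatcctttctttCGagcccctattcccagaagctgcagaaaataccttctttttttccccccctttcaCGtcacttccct
They hold 36 and 13 CpGs for the higher Ebf3 and Tbx18, and 3, 23, 32 and 5 for the lower Slc28a1, Trh, Fgf18 and Phc1, against a median of 12 over 12797 tested genes with a window. High and low CpG content occurred among the falls shown.

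Over all genes, RefSeq promoter windows covered only 74.4% of the higher and 74.9% of the lower genes, so a comparison of the classes on them is void. The first 300 nt of the matched GENCODE vM21 transcript, a choice made after the data were seen, covered 98.9% of the higher, 98.9% of the lower and 98.7% of the genes not called. The ratio of observed to expected CpG in them was above 0.6, a usual mark of CpG islands, in 62.1% of 1751 higher genes, 27.1% of 177 lower genes and 62.4% of the genes not called. The lower genes are also less abundant than most. At a mean normalized count of 100 or more the shares were 69.9% of higher, 50.9% of 55 lower and 75.1% of other genes, so the gap of the lower genes was smaller there. This mean includes the PRC1-null libraries, so a rise itself helps a gene to reach it: 825 higher genes did so, but only 351 had 100 counts in wild-type cells. These are descriptions with no test.

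**Figure D4:**
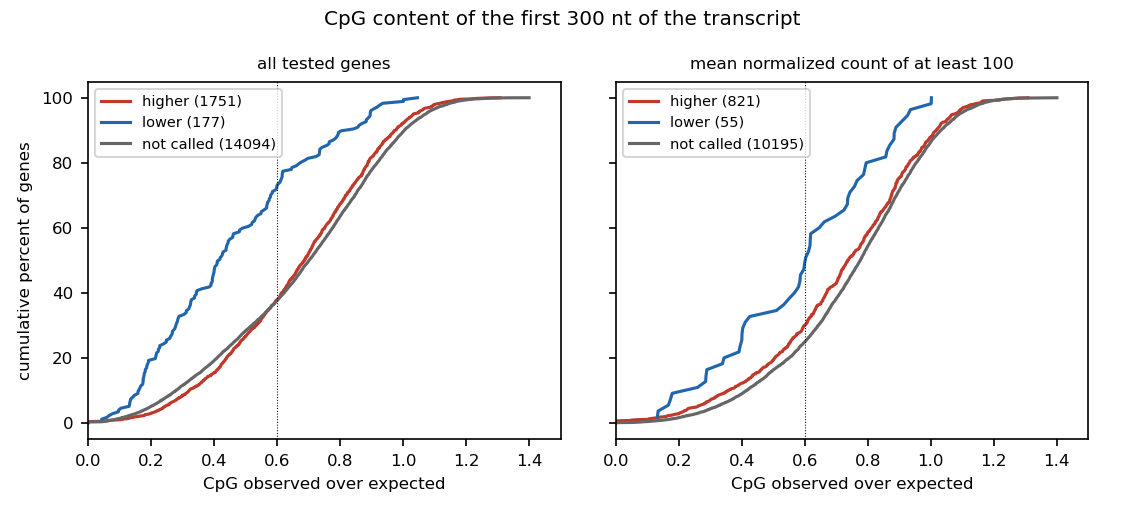
Curves give the cumulative percent of genes against the ratio of observed to expected CpG in the first 300 nt of the transcript, for higher (red), lower (blue) and not called genes (grey), over all tested genes and over those at a mean normalized count of 100 or more. The dotted line is at 0.6, above which lie 62.1% of higher and 27.1% of lower genes on one side and 69.9% and 50.9% on the other.

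The share of genes called depended on their level and length. By the mean over all 16 libraries, 25.6% of genes with 30 to 100 counts were higher, against 1.67% of those above 3000. In the lowest group, up to 3 counts, it was 2.45%. Lower genes made up between 0.334% and 3.18% of each group. In wild-type cells the higher genes had a median of 20.6 mean normalized counts and the lower genes of 70.3, against 280 for all genes tested, and only 19.8% of higher genes reached 100 there. Within the genes of 100 to 1000 counts, the share higher was 2.79% below 10 kb of gene length, 4.41% from 10 to 30 kb, 14.7% from 30 to 100 kb and 43.3% above 100 kb, where the median log2 fold change was 0.84 over 699 genes. Above 1000 counts it was 7.68% in genes over 100 kb and under 1% in each shorter group. Between 10 and 100 counts it was 27.9% above 100 kb and 19.2% below 10 kb. At a given count a longer gene has less RNA per kilobase, so length and level per kilobase cannot be told apart here. The groups by level rest on the mean over all libraries, which the rise itself raises, so they are partly set by the call.

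**Figure D5:**
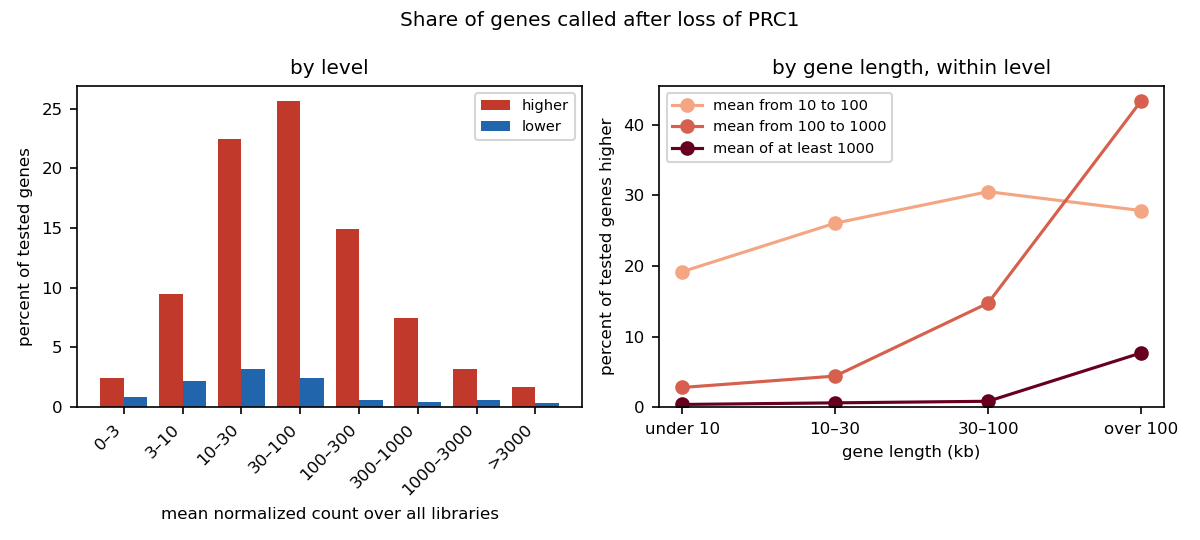
Bars give the percent of tested genes that were higher (red) or lower (blue) after loss of PRC1 by mean normalized count over all libraries, and lines give the percent higher by gene length within 3 ranges of that count. The share higher peaks at 25.6% for 30 to 100 counts, and for 100 to 1000 counts it reaches 43.3% in genes over 100 kb.

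Higher genes often lay next to each other, given here as a description with no test. The nearest tested gene was itself higher for 409 of 1764 placed higher genes (23.2%), and for 21.7% with the Hox genes left out. It was higher for 5.08% of the lower, 7.67% of the other and 9.34% of all genes tested. Overlapping genes counted as neighbours, and the 19 opposite-strand RNAs that were higher along with their named gene were not left out. Of 177 lower genes, 7 (3.95%) had a lower nearest neighbour. On chromosomes 1 to 19 and X the higher share ran between 5.98% on chromosome 17 and 14.3% on chromosome 6, and the medians of well-counted genes lay between -0.11 and -0.06. Chromosome Y had 0 of 5 tested genes higher or lower, with a median of -0.69 over its well-counted genes.

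The Eed-/- line allows the effect of TAM to be measured a second time, as TAM-treated minus untreated cells of that line, in which no library is shared with the comparison above. There 5.47% of the genes tested were higher and 2.19% lower by the same thresholds. Of the 1770 genes higher after loss of PRC1, 610 (34.5%) were higher and 7 lower in the Eed-/- line, with a median log2 effect of 0.94. Of the 179 lower genes, 63 (35.2%) were lower and 1, Gna14, was higher, with a median of -0.69, and 144 of the 179 had a negative value. Sharing of the fall was closest for Phc1, at -1.63 ± 0.18 in the Eed-/- line against -1.64 ± 0.13, and Slc28a1, Trh, Lefty1, Scn3a, Platr22, Pcyt1b, Zeb1 and Dclk2 were called lower there too. Among the rises, Sorcs3 (2.76 ± 0.47), Pax7 (2.72 ± 0.47) and Esrrg (2.39 ± 0.30) had the largest effects in that line.

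A Wald test of the difference between the effects of TAM in the 2 lines found 7.88% of all genes tested at a Benjamini-Hochberg adjusted p under 0.05, and 441 of the 1770 higher and 37 of the 179 lower genes. The genes were called on one of the values compared, which tilts the difference toward the line that called them. The effect was larger in the line with EED for 437 of the 441 higher genes, but only for 21 of the 37 lower genes. Meis2 was an extreme case, with a log2 effect of 4.07 ± 0.14 in that line and -0.77 ± 0.20 in the Eed-/- line, where the untreated cells had 2045 mean normalized counts, against 121 in untreated cells of the line with EED. Nr0b1, Fgf4, Pla2g1b, Jam2 and Cobl went the other way and fell further in the Eed-/- line, with log2 effects of -3.46, -3.61, -4.09, -3.43 and -2.41 there. Loss of EED, the clone and the later passage of the Eed-/- line cannot be told apart in these differences.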

How the data were processed

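Nuclear RNA from 4 groups of 4 libraries was sequenced after rRNA depletion. Per the study's methods, the authors removed rRNA reads (Bowtie2), aligned others to mm10 (STAR), dropped duplicates and ran DESeq2 over a nonredundant gene set. Their deposited tables hold mean normalized counts over all 16 libraries (signal), moderated and unshrunken log2 fold changes against untreated cells with standard errors (log2), Wald statistics (score) and p-values (adjusted p-value included). The deposited calls were remade from these columns (adjusted p under 0.05, fold over 2). Depth per library, and whether counting used strand, are not given in the sources used here. A fit of edgeR or limma needs values per library, which the tables do not hold. Columns of other samples numbered 0.

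Levels of each group were derived from the overall mean and 3 unshrunken fold changes, and are approximate. The effect of TAM in the Eed-/- line is the difference of its 2 fold changes, tested by a Wald test with Benjamini-Hochberg adjustment. Its standard error, and that of the difference between lines, sums squared errors that count the shared control more than once, and is conservative. Where a gene had several entries, the one with the highest mean stood for it. The groups and 77 gene lists were chosen with earlier results of these data known. Genes are named by rule: the PRC1 ligase genes and Eed, the 15 largest rises and 25 largest falls with a mean of at least 100, the 8 most abundant called genes in each direction (predicted genes skipped), up to 4 called members per list by adjusted p plus up to 5 called in the rarer direction, and the 6 largest noncoding rises and 4 largest noncoding falls with a mean of at least 20. The replicates were biological quadruplicates, each group from 1 line. The p-values weigh the mean difference between groups against the spread of replicates as modelled in the authors' fit. The mean counts of that fit span all 16 libraries. On simulated data for the PRC1 comparison, 100 of 17445 entries were changed per size. The call recovered 85% of changes of 1.5 and 99% of changes of 3 on the log2 scale. Noise was drawn with the same standard errors that the test used. These shares therefore follow from those errors, and do not check the authors' fit or the spread of replicates. Scripts ran in Python 3.11.15 with scipy 1.17.1, pandas 2.3.3 and numpy 2.4.6, and plots were drawn with matplotlib 3.10.9. Some genes that the naming rule takes are not reported here.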

Additional observations from a re-analysis of the deposited data

Results flagged for a closer look

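In 22 of the 40 genes with the largest changes, the effect of TAM differed between the 2 lines by the Wald test with Benjamini-Hochberg adjustment, given as the log2 effect in the line with EED minus that in the Eed-/- line. Among the genes that rose after loss of PRC1 it was 4.84 for Meis2, 4.19 for Pax3, 3.74 for Tbx18, 3.05 for Nlgn1, 2.96 for Hoxd13, 2.90 for Ebf2, 2.82 for Ebf3, 2.77 for Nr2f2, 2.50 for Pitx1, 2.44 for Sim1, 1.87 for Esrrg, 1.67 for Trhde and 1.65 for Sim2. Among those that fell it was -2.87 for Gna14, -2.67 for Fgf18, -1.98 for Inhbb, -1.67 for Polr3gl, -1.30 for Sall1, -1.10 for Usp29 and -1.05 for Socs2. Of these, Gna14 was higher after TAM in the Eed-/- line, Fgf18, Inhbb and Polr3gl had positive values there, and Sall1, Usp29 and Socs2 had negative values that were not called. It was 2.56 for Pla2g1b and 2.16 for Nr0b1, which fell further in the Eed-/- line. The genes were chosen on one of the effects compared, which tilts the difference toward the line with EED.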

How the results depend on the processing

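Without the fold threshold 3225 entries were higher and 2781 lower, and 3666 and 1620 once centred on the median, an alternative added after the data were seen. A fold of 4 left 650 and 15, a fold of 1.5 gave 629 lower, and a mean of at least 100 left 929 and 65. Unshrunken fold changes, set against the standard errors of the moderated ones, gave 54 genes past a 2-fold fall, a count that may be too high. The tighter bound planned held for 2626 genes. At a mean of at least 100, CpG-rich starts made up 69.9% of higher, 50.9% of lower and 75.1% of other genes, and genes over 100 kb 48.3% of higher and 14.9% of other genes. No named gene changed sign under the alternatives run. Centring took the medians of 6 lists that lay just below 0 above it, which brought the lists with a median above 0 to 61 of 76, against 55, and at a mean of at least 10 the median of the keratins was -0.01, against 0.48. With centring Ring1, Olig1, Etv1, Inhbe, Ptch1, Cntnap5b, Kcnh8, Stmn2 and Msmo1 were no longer called, and the other 284 of 293 named genes were unchanged in call. The causes were not tested, beyond the fewer genes a filter leaves. No paired analysis was possible because the tables hold no values per library. For the same reason leaving out replicates and fits with edgeR or limma were not run.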
